A study of Mus musculus with 83 samples.

Results

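Fat cells secrete proteins into the blood as well as storing lipid, and 9 genes for such proteins were followed here during the formation of brown adipocytes in culture and in brown fat itself. They are Adipoq, Cfd, C3, Agt, Retn, Lep, Rbp4, Apoe and Apoc1, taken by name. All 9 were among the 11144 genes of the 4 culture tables, and 12 of the 29082 RefSeq transcripts of the tissue table belonged to them. The study asks how the histone methyltransferases MLL3 and MLL4 and the coactivators CBP and p300 act on enhancers while brown fat cells form. Of its 83 samples, the 5 RNA libraries were used. The chromatin libraries were not analysed here.

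The cultured cells came from interscapular brown fat of newborn mice on the C57BL/6J background and were immortalized with SV40 large T antigen delivered by retrovirus. All 4 culture libraries shared the Pparg-flox/flox genotype, so floxed Pparg was no difference between them. They were proliferating preadipocytes (day -3), confluent preadipocytes (day 0), immature adipocytes (day 2) and mature adipocytes (day 7). Differentiation was induced at day 0 with 0.02 μM insulin, 1 nM of the thyroid hormone T3, 0.5 mM of the phosphodiesterase inhibitor IBMX, 2 μg/ml of the glucocorticoid dexamethasone and 0.125 mM indomethacin, and later medium changes held insulin and T3 without the other agents. The tissue library was interscapular brown adipose tissue of C57BL/6J mice aged 16 weeks. The sources used here do not say how many animals or separate cultures stand behind a library. Each group had 1 library, so no difference below has a replicate check, no p-value is given, and an order of levels is the order in these libraries.

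Adiponectin (Adipoq) is a hormone made almost exclusively by fat cells that raises insulin sensitivity through the receptors AdipoR1 and AdipoR2. Adipsin (Cfd) is complement factor D, the protease that cleaves factor B once it is bound to C3 and so starts the alternative complement pathway, and C3 is the central protein of that cascade. Angiotensinogen (Agt) is the precursor from which renin releases angiotensin. Resistin (Retn) and leptin (Lep) are hormones of fat cells in mice, leptin being the signal of fat stores to the brain. Rbp4 carries retinol in the blood, and the apolipoproteins E and C-I (Apoe, Apoc1) sit on lipoprotein particles, where the first is a ligand for cell surface receptors.

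Proximal promoters are shown for 6 of these genes, because they include the 2 most abundant, the 1 with a day 2 maximum, and those in which a C/EBP motif was found. Each is the 250 bases before the annotated start, read 5′ to 3′ on the gene's strand, from RefSeq on build GRCm38.p6. Capitals mark a C/EBP motif (TTGCNNAA) or a TATA box (TATAAA) on either strand, and Adipoq and Cfd hold neither. Adipoq lies at chr16:23146286-23146535 (+ strand), Cfd at chr10:79890603-79890852 (+), Agt at chr8:124569707-124569956 (-), C3 at chr17:57228137-57228386 (-) and Lep at chr6:29059971-29060220 (+). For Rbp4, the one of 2 annotated starts with motifs is shown, chr19:38124812-38125061 (-).
Adipoq: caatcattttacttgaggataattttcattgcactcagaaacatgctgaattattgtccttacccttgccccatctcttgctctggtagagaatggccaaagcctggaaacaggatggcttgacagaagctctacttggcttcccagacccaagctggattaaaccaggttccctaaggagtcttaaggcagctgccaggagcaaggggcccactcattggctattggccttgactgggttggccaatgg
Cfd: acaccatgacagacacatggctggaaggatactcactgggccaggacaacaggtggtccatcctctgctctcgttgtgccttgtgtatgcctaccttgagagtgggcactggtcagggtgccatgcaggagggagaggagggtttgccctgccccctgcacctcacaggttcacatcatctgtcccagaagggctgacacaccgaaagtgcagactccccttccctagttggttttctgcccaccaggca
Agt: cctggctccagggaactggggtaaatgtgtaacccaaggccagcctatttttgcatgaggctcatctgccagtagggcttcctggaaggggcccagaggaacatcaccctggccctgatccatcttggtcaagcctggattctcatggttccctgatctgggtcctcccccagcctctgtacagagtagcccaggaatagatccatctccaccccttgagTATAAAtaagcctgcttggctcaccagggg
C3: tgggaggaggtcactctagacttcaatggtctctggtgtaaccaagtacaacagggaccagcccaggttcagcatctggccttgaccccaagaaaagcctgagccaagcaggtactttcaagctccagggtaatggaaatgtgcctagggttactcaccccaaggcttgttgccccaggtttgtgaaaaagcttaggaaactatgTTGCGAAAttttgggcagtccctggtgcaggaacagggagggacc
Lep: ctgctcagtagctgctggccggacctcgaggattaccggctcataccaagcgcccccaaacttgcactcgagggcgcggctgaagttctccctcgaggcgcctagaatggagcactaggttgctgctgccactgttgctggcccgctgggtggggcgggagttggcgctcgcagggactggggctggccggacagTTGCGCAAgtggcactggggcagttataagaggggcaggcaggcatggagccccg
Rbp4: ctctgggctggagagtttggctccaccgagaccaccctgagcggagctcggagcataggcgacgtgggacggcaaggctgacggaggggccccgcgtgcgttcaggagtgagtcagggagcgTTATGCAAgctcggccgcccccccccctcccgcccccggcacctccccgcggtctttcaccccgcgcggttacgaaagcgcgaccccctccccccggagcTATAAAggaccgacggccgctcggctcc

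Of the 9 members, 8 matched the promoter table (all but Apoc1), with 11 promoters in all, since Apoe has 3 and Rbp4 has 2. All motifs were searched on both strands. The C/EBP motif was in 3 of the 11: at bases 45 to 38 before the start of C3 (TTGCGAAA), at bases 55 to 48 of Lep (TTGCGCAA, which reads the same on both strands) and at bases 128 to 121 of Rbp4 (TTATGCAA, on the opposite strand). It was in 9.56% of all 32851 promoter windows of that length. TATAAA was in 3 of the 11 (12.4% of all), at bases 30 to 25 of Agt, at bases 28 to 23 of Rbp4, and as an overlapping pair on both strands in 1 Apoe promoter. The hexamer AGAACA of the glucocorticoid response element was in 1, another Apoe promoter (16.1% of all). A direct repeat of AGGTCA spaced by 1 base, the PPAR/RXR element, was in 0 of 11 and in 0.0335% of all. The promoters also differed in CpG content. Adipoq and Agt had no CpG in this window, C3 had 1, and Cfd and Retn had 2 each. The Rbp4 promoter not shown had 5, the 3 Apoe promoters had 8, 9 and 10, Lep had 16 and the Rbp4 promoter shown had 28. The median over all promoters was 6, and 6 of the 11 member promoters lay below it. These matches are letters in a short window, and which start the cells used was not measured.

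Fat cell identity in the libraries was checked with marker genes. All 11 adipocyte markers with a culture value were at least 2-fold higher at day 7 than at day -3 on the log2(FPKM + 1) scale used throughout. The summed level of the 7 brown fat markers with values was 0.904 FPKM at day -3 and 239 at day 7, mostly Cox7a1 (132) and Kcnk3 (87.9), while Ucp1, the uncoupling protein that defines brown fat, stood at 1.22 FPKM at day 7 and at 1015 RPKM in the tissue. The 6 preadipocyte markers with values summed to 155, 1229, 1052 and 293 FPKM over the 4 days, mostly Col3a1 (118, 1062, 963 and 256). From day 0 to day 2, 1 of the 6 was at least 2-fold higher and 3 were lower, beside 6.18% and 10.7% of all genes. Markers of other cells were low in culture: the sums ranged from 5.83 to 8.03 FPKM for 5 macrophage genes, 0.931 to 8.02 for 2 lymphocyte genes, 1.45 to 7.74 for 3 hepatocyte genes, 0.0668 to 1.88 for 1 endothelial gene and 0.756 to 1.94 for 1 blood gene. The 3 muscle genes summed to between 2.03 and 67.3 FPKM, the last at day 7 and mostly myoglobin (Mb, 65.1). The other genes of these lists had no value in the culture tables. Depth is unknown for the culture libraries, and in the tissue a single read (1 read) per kb came to about 0.187 RPKM.

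The 9 genes together were near 0 before induction and prominent in the mature cells. Their summed level over the 4 days was 3.59, 3.47, 454 and 1975 FPKM, which is 0.000975%, 0.00109%, 0.145% and 0.590% of each table's total. Before induction Apoe alone exceeded 1 FPKM, and the other 8 lay in the lowest 5% of listed genes in both preadipocyte libraries. At day 2, 5 of the 9 were above 10 FPKM. At day 7, 8 were above 10, 6 were above 100 and 6 ranked in the top 5% of the table, and Adipoq and Cfd together made up 60.5% of the sum. The tables list only genes that exceeded 1 FPKM in some culture library (the smallest maximum was 1.00125), so those 8 could only be listed by being higher later, and the count of members that were higher is no support by itself. The same limit bears on the counts of marker, pathway and neighbour genes. In bulk RNA, more cells making a transcript and more of it per cell cannot be told apart.

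**Figure D1:**
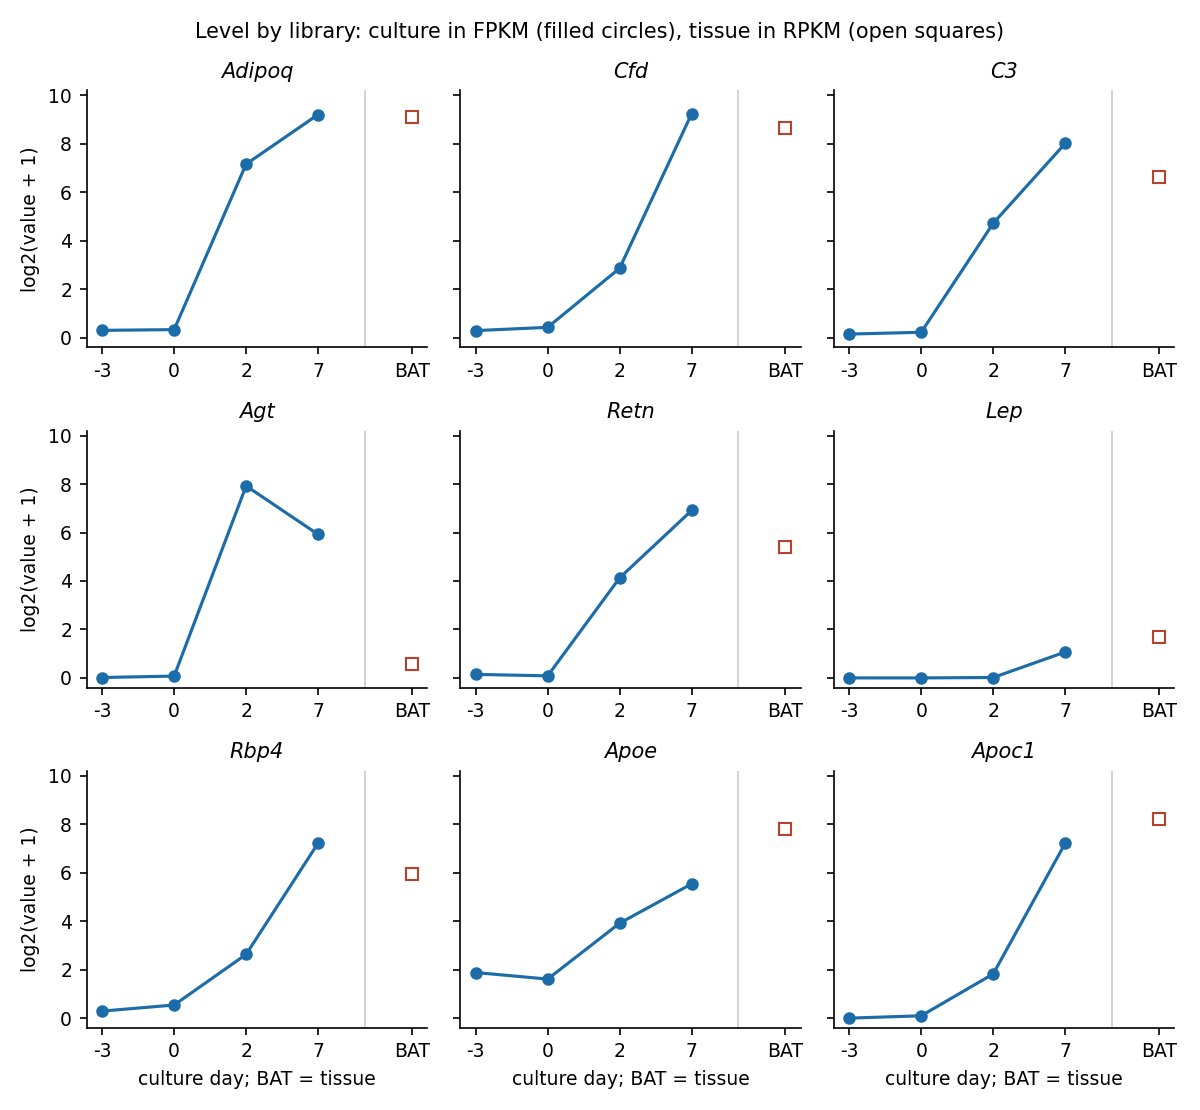
Level of each of the 9 genes as log2(value + 1) in the culture libraries (filled circles, FPKM, days -3, 0, 2 and 7, drawn at equal spacing) and in brown adipose tissue (open squares, RPKM, highest transcript), 1 library each. Adipoq, Cfd, C3, Retn, Rbp4, Apoe, Apoc1 and, at a low level, Lep were highest in culture at day 7, whereas Agt was highest at day 2 and near 0 in the tissue.

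Of the hormone genes Adipoq, Retn and Lep, Adipoq was the highest at day 2. Its values were 0.234 and 0.260 FPKM in the preadipocytes of days -3 and 0, then 142 FPKM on day 2 and 590 on day 7, and 554 RPKM in the tissue. Both preadipocyte values were close to 0 and both adipocyte values were far above them, the difference from day 0 to day 2 being 6.83 on the log2 scale and number 6 from the top of 10717 genes. At day 7 it stood at position 35 from the top of the table. Its 2 receptor genes had values in the same libraries. Adipor1 stayed between 48.8 and 69.2 FPKM on all 4 days, while Adipor2 read 17.3, 19.6, 165 and 111 FPKM, highest at day 2. T-cadherin (Cdh13), which binds adiponectin, has no culture value and was at 5.80 RPKM in the tissue.

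Adiponectin is assembled into disulfide-linked multimers in the endoplasmic reticulum, and 19 genes for folding and secretion of this kind all had culture values. From day -3 to day 7, 4 were at least 2-fold higher and 2 were lower, where 20.3% and 14.7% of all compared genes were. The list's median difference was -0.41 on the log2 scale, against 0.07 over all genes compared. Ero1l, the oxidase that recharges disulfide isomerases, read 10.7, 17.1, 45.3 and 256 FPKM, which made it higher at each later day, and 3.13 RPKM in the tissue. Gstk1, also known as DsbA-L and linked to adiponectin assembly, read 0.173, 1.45, 1.58 and 3.98 FPKM and 33.4 RPKM in the tissue. Sel1l, part of the machinery that clears misfolded proteins, read 20.7 FPKM at day -3 and 61.1 at day 7. Plod1 was the other higher gene, at 27.8 and 74.0 FPKM on these days. The 2 lower genes were Pdia3, at 482 and 185 FPKM, and Calr, at 478 and 218. The general chaperone Hspa5 stayed between 270 and 511 FPKM.

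At day 2 the 2 complement genes stood at a smaller share of their day 7 level than Adipoq did. Cfd read 0.225, 0.345, 6.30 and 605 FPKM over the 4 days, a 96.0-fold ratio between day 7 and day 2, and 407 RPKM in the tissue. Its difference from day 2 to day 7 was the largest upwards of all 10666 genes compared, at 6.38 on the log2 scale. C3 read 0.109, 0.168, 25.4 and 258 FPKM and 99.3 RPKM in the tissue. At day 2 C3 was the higher of the pair, and at day 7 Cfd was.

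Factor B and properdin, of the same pathway, were above both in the preadipocytes and far below both at day 7. Factor B (Cfb), the substrate of adipsin, read 2.15, 3.11, 2.74 and 5.66 FPKM, and properdin (Cfp), which stabilizes the convertase, 3.09, 7.39, 5.92 and 6.92. Of 25 further complement genes 11 had culture values and 9 could be compared between day -3 and day 7. Of these, 4 were at least 2-fold higher and 1 was lower, beside 20.3% and 14.7% of all genes, and the median was 0.95. With a pseudocount of 5, 2 were higher. C4b, of the classical pathway, read 0.175, 0.316, 2.59 and 16.8 FPKM. C1s, the protease that cleaves it, read 3.21, 42.6, 22.0 and 14.1 and so was highest in confluent preadipocytes, before induction. Masp1, a protease of the lectin pathway, read 45.7, 23.6, 3.27 and 4.65. C3ar1, the receptor of the C3 fragment C3a, read 2.86, 0.987, 0.0660 and 0.0693 FPKM, so it was highest in proliferating preadipocytes and lowest in both adipocyte libraries.

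Agt did not share the course of the others. Its values were 0.0117 and 0.0535 FPKM in the preadipocytes of days -3 and 0, 241 FPKM on day 2 and 59.6 on day 7, with 0.508 RPKM in the tissue. At day 2 it was the highest of the 9 genes and made up 53.2% of their sum, and its difference from day 0 was 7.85 on the log2 scale, the second largest upwards of 10717. It was then the 1 member that was lower at day 7, by 2.00 on the log2 scale.

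Of the 9 renin-angiotensin genes with culture values, 4 had their highest value on the same day, at much lower levels. These 4 exceeded 1 FPKM at day 2 only. They could be listed only by being highest then, so the shared day is no support by itself. This limit bears on the step counts below as well. The angiotensin receptor genes Agtr2 and Agtr1a read 11.7 and 3.67 FPKM at day 2, against 0.196 and 0.720 at day 0 and 0.656 and 0.978 at day 7. Renin (Ren1) read 0.0145, 0.357, 1.73 and 0.0503 FPKM and Mas1, the receptor of angiotensin-(1-7), 0.0935, 0.177, 1.10 and 0.531. Over all 9, 4 were at least 2-fold higher and 0 lower from day 0 to day 2, where 6.18% and 10.7% of all genes were, and 1 was higher and 3 lower from day 2 to day 7, where 9.62% and 5.14% were. Most of these values are low, and with a pseudocount of 5 the counts were 1 higher at the first of these steps and 1 lower at the next. Among 4 peptidases that degrade or trim angiotensin peptides, 3 were highest at day 7 and Anpep at day 0, with 0.335, 3.16, 1.27 and 1.32 FPKM. Mme (neprilysin) read 0.239, 3.28, 5.91 and 13.5 FPKM, Enpep 0.0536, 0.969, 1.10 and 3.01, and Lnpep 16.1, 16.4, 36.7 and 40.8. From day -3 to day 7, 3 of 5 compared genes of the list were higher and 0 lower, beside 20.3% and 14.7% of all genes, and the median was 1.29. In the tissue Agtr1a was at 3.11 RPKM, and Ren1 and Agtr2 were listed at 0.

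**Figure D2:**
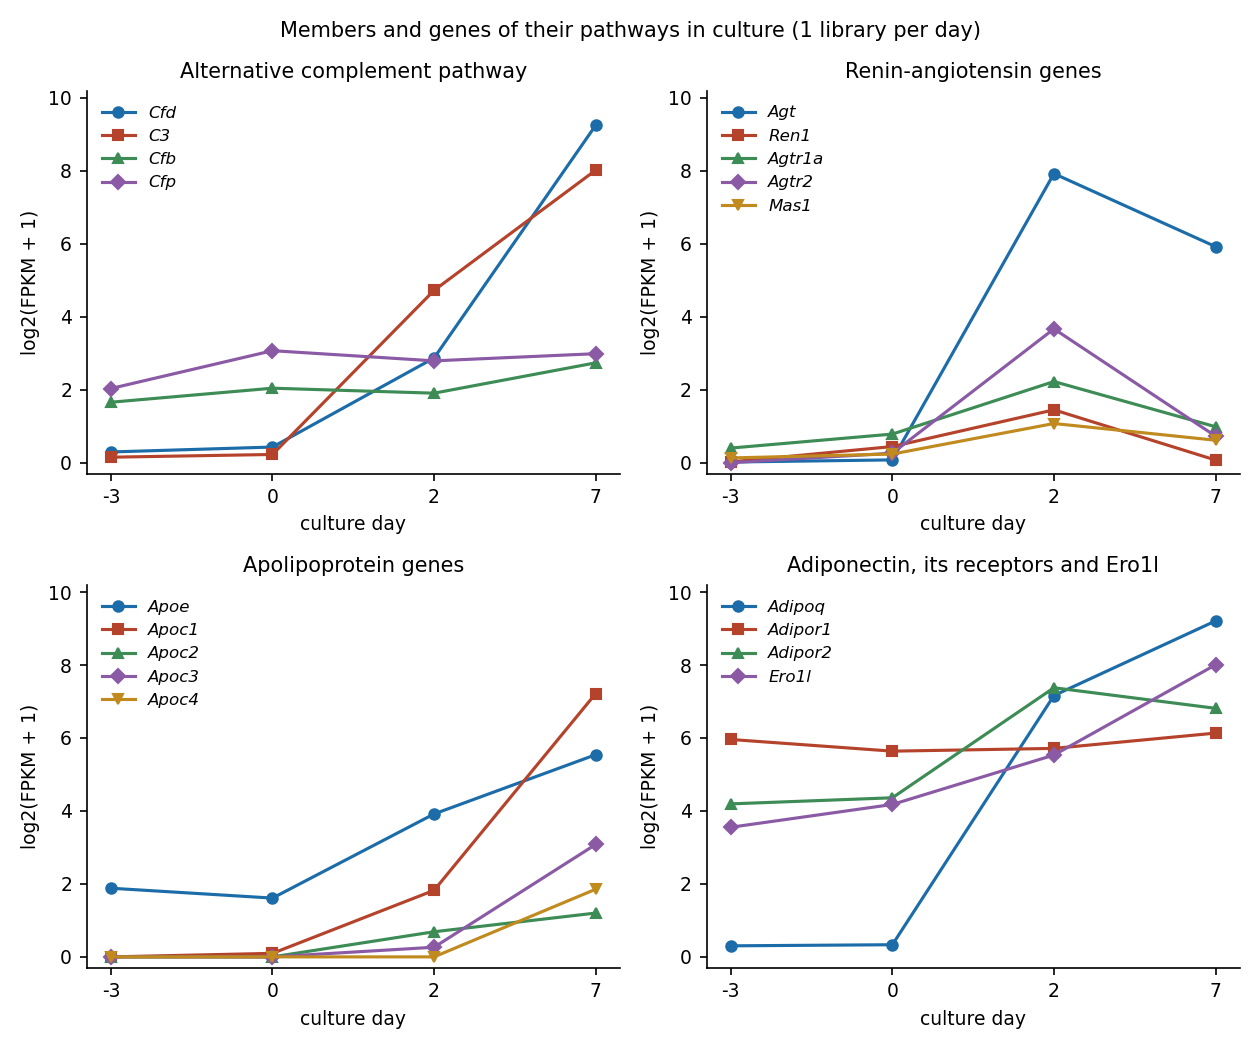
Level as log2(FPKM + 1) by culture day (1 library per day, days drawn at equal spacing) for Cfd, C3, Agt, Apoe, Apoc1 and Adipoq and for genes of their pathways. At day 7 Cfd and C3 were well above the other complement genes drawn, and Agt, Agtr2, Agtr1a, Ren1 and Mas1 had their highest value at day 2.

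The 2 hormones resistin and leptin differed widely in level. Retn read 0.106, 0.0610, 16.5 and 119 FPKM over the 4 days, with 40.8 and 16.3 RPKM for its 2 transcripts in the tissue. Lep was listed at 0 at days -3 and 0, at 0.0117 FPKM at day 2 and at 1.10 at day 7, with 2.24 RPKM in the tissue, the lowest of the 9 genes in the day 2 and day 7 cultures. Its log2 difference of 1.05 from day 2 to day 7 only just met the 2-fold rule. It did not with a pseudocount of 5 (0.28). The leptin receptor gene Lepr has no culture value and was at 0.110 RPKM in the tissue.

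Rbp4 was far higher at day 7 than at day 2. It read 0.223, 0.456, 5.20 and 148 FPKM over the 4 days, a 28.5-fold ratio between day 7 and day 2, and its 2 tissue transcripts read 45.6 and 60.3 RPKM. Stra6, the receptor that takes up retinol from Rbp4, was at most 1.80 FPKM, at day 0, and at 0.0277 at day 7, and it was listed at 0 in the tissue. Transthyretin (Ttr), the blood partner of Rbp4, has no culture value and was listed at 0 in the tissue. Among 11 retinol transport genes 6 had values, and from day -3 to day 7, 1 of 4 compared was higher and 1 lower, beside 20.3% and 14.7% of all genes, with a median of -0.00105. The first was Dhrs3, a retinal reductase, with 1.69, 9.41, 22.7 and 84.8 FPKM, and the second Crabp1, a retinoic acid binding protein, with 55.7, 283, 7.11 and 1.21.

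Apoe was the 1 member already expressed in preadipocytes. It read 2.69, 2.06, 14.1 and 45.6 FPKM over the 4 days and 220 RPKM in the tissue. Day -3 and day 0 differed by -0.27 on the log2 scale, inside the 2-fold rule, and its overall difference of 3.66 was smaller than for every other member but Lep. Apoc1, which lies next to it on chromosome 7, was listed at 0 at day -3 and read 0.0697, 2.54 and 148 FPKM at days 0, 2 and 7, with 293 and 260 RPKM for its 2 tissue transcripts. So Apoe was the higher of the neighbours up to day 2, and Apoc1 at day 7.

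Apoc2, Apoc3 and Apoc4, further small apolipoproteins, were listed at 0 in both preadipocyte libraries and reached 1.30, 7.46 and 2.62 FPKM at day 7. Of the 16 apolipoprotein and lipid transfer genes compared from day -3 to day 7, 11 were at least 2-fold higher and 1 lower, beside 20.3% and 14.7% of all genes, with a median of 1.27. With a pseudocount of 5 that was 5 higher and 0 lower. Apoa1, Apoc2, Apoc3, Apoc4 and Abcg1 exceeded 1 FPKM at day 7 only. They could be listed only by being higher then, so the count is no support by itself. The 11 higher genes included the cholesterol exporters Abca1, which loads apolipoproteins with lipid (0.324, 1.22, 24.1 and 60.5 FPKM), and Abcg1 (0.0419, 0.110, 0.393 and 22.3), and also Apol6 (0.222, 2.59, 2.50 and 77.3). Lpl, lipoprotein lipase, which acts on the particles that carry these proteins, was at 23.8, 34.1, 1842 and 1264 FPKM. The receptor side was mixed. Vldlr, which binds Apoe, read 2.75, 11.8, 31.6 and 41.5 FPKM, while Lrp1, another of its receptors, read 147, 272, 301 and 106. Over the 8 receptor genes compared, 3 were higher and 3 lower, beside 20.3% and 14.7% of all genes, and the median was -0.15; Sort1, a sorting receptor, was the other higher gene named by the rule, at 4.71 and 50.2 FPKM on days -3 and 7.

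Counted by the 2-fold rule, the members moved at 2 of the 3 steps. Only Apoe could be compared from day -3 to day 0, because the rule needs a value of at least 1 FPKM in 1 of the 2 libraries, and it was neither higher nor lower, where 11.3% of all compared genes were higher and 5.43% lower. From day 0 to day 2, 8 of 8 compared members were higher and 0 lower, against 6.18% and 10.7% of all genes. From day 2 to day 7, 8 of 9 were higher and 1, Agt, was lower, against 9.62% and 5.14%. End to end, from day -3 to day 7, 9 of 9 were higher and 0 lower, against 20.3% and 14.7%, with a median log2 difference of 6.93 against 0.07 over all genes compared. Cfd, Adipoq and C3 were at positions 1, 2 and 4 of 10828 in this end-to-end difference. These steps share libraries, and the limit on which genes are listed, given above, bears on each count.

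The genes split by how much of the mature level was present at day 2. Expressed as a percentage of the day 7 value, the day 2 value was 1.04% for Cfd, 1.72% for Apoc1, 3.50% for Rbp4, 9.84% for C3, 13.8% for Retn, 24.1% for Adipoq and 31.0% for Apoe, and it was 405% for Agt. For Lep, near the lower end of measurement, it was 1.07%. Among the 1378 genes that were higher at day 7 than at day -3 and had at least 10 FPKM at day 7, the median was 58.4% and the quartiles were 38.4% and 80.8%. All 8 members in that set lay outside the quartiles, 7 below and Agt above, but most of the set was expressed before induction, which bounds how low its percentage can be. Against the 96 genes of the set that, like all of these members but Apoe, were at or below 1 FPKM in both preadipocyte libraries, the median was 11.3% and the quartiles were 3.41% and 24.4%. There Cfd and Apoc1 lay below the lower quartile, Rbp4, C3, Retn and Adipoq lay between the quartiles, and Agt lay above, with 95 of the 96 genes, itself included, at or below its value. So the low percentages were in the range of genes that started near 0, and Agt lay near the upper end of both sets. Both sets required at least 10 FPKM at day 7, the base of the percentage. Genes that fell back further by day 7, such as Agtr2 (11.7 and 0.656 FPKM at days 2 and 7), were left out. The place of Agt is therefore no support by itself. Several adipocyte markers were closer to their day 7 level by day 2, or above it: the value was 118% for Fabp4, 146% for Lpl, 75.7% for Cebpa and 72.8% for Cd36. Plin1 (14.0%), Slc2a4 (11.3%) and Gpd1 (8.15%) were near C3 and Retn. The remaining markers lay between these, with Lipe at 61.1%, Dgat2 at 48.6%, Cidec at 36.2% and Pparg, near Adipoq, at 25.5%.

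**Figure D3:**
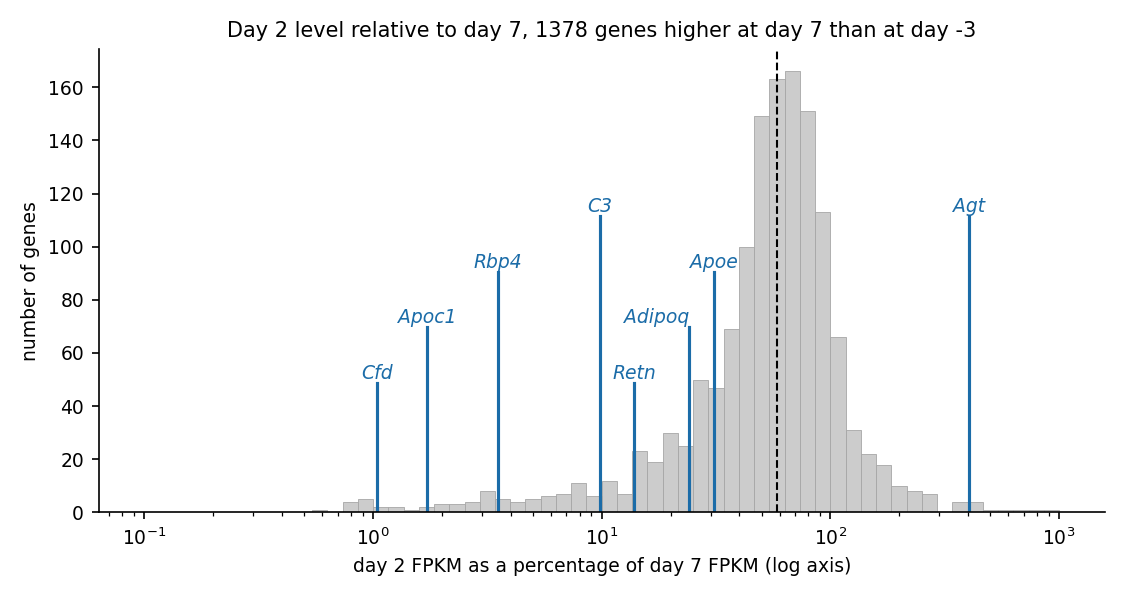
Histogram of the day 2 FPKM as a percentage of the day 7 FPKM (log axis) for the 1378 genes higher at day 7 than at day -3 with at least 10 FPKM at day 7; the dashed line is their median, 58.4%, and blue lines mark the 8 members in the set, their heights having no meaning. Cfd, Apoc1 and Rbp4 lay at the far left and Agt at the far right.

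In level, the mature culture and the tissue came close for some members and far apart for others. FPKM and RPKM were normalized separately, and the median ratio of tissue to day 7 culture was 0.364 over 10275 genes. Genes were therefore compared by rank within each library. The ranks cover the 10467 genes with a culture value that were at 1 or more in either, not all tissue genes. Adipoq stood at percentile 99.7 in both libraries, Cfd at 99.7 in culture and 99.5 in the tissue, and C3 at 98.9 and 97.4. Apoc1 (97.2 and 99.2), Rbp4 (97.3 and 95.6) and Retn (96.0 and 93.1) also kept a high rank in both. By this measure 4 of 9 members ranked higher in the tissue, where 50.5% of all ranked genes did.

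The ranks of Agt, Lep and Apoe lay farther apart. Agt went from percentile 89.1 in the day 7 culture to 8.68 in the tissue, a difference of -80.4 percentage points that 38 of the 10467 genes, Agt included, matched or exceeded downwards. Its 59.6 FPKM was 117 times its 0.508 RPKM, in units normalized separately, and 0.856% of genes had a lower ratio of tissue to culture. The tissue value was worth an estimated 2.72 reads per kb of transcript, so it rests on few reads. Lep ranked at 2.21 in culture and 27.7 in the tissue, and Apoe at 84.4 and 98.9. Gains larger than these were common over all ranked genes, at 10.4% of them for Lep and 20.6% for Apoe. Among all members Apoe had the highest ratio of tissue to culture value, 4.83, followed by Lep at 2.04 and Apoc1 at 1.98. The median of this ratio over 10275 genes was 0.364. Over all named tissue genes, with or without a culture value, Agt stood at percentile 47.7, Lep at 61.3 and Apoe at 99.4.

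**Figure D4:**
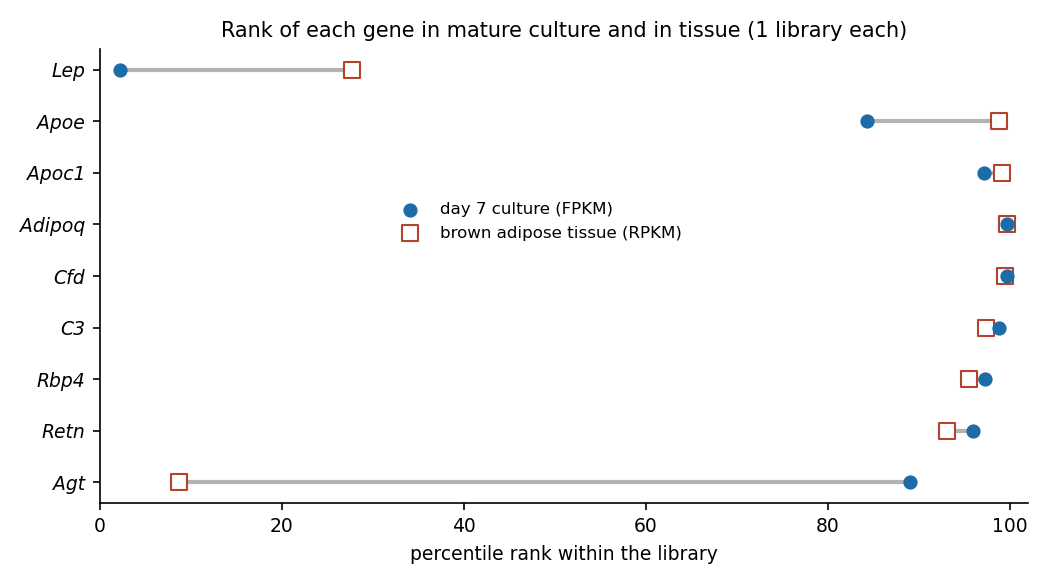
Percentile rank of each gene, among 10467 genes with a culture value, in the day 7 culture (filled circles, from FPKM) and in brown adipose tissue (open squares, from RPKM), 1 library each, joined by grey bars and ordered by the difference. Agt lay at 89.1 in culture and 8.68 in the tissue, Lep and Apoe ranked higher in the tissue, and the other 6 lay above 93 in both.

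Other cells that the tissue holds can make some of these proteins, macrophages above all Apoe, C3 and Apoc1, and the liver several of them. Of 15 macrophage markers, 14 had tissue values, 0 of them at 0, with a sum of 68.8 RPKM led by Lyz2 at 19.6. In culture the 5 markers listed there summed to 5.83 to 8.03 FPKM, among which Cd68, without a tissue value, read 4.20 FPKM at day 7. Lyz2, C1qa, C1qb and C1qc have no culture value, so the tissue and culture sums cover unlike sets of genes. The part of macrophages in the tissue levels of Apoe, C3 and Apoc1 was not tested. Of 9 hepatocyte markers 7 were listed at 0 in the tissue, including Alb, Ttr and Apob, with the remaining sum of 19.5 RPKM mostly from Cyp2e1 (18.7). Endothelial markers summed to 168 RPKM over 8 genes, lymphocyte markers to 55.2, blood markers to 93.2 over 3, preadipocyte markers to 128 over 7 and muscle markers to 1410 over 8, with Acta1 at 534. Adipocyte and brown fat markers summed to 10738 over 12 genes and to 3605 over 9.

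The genes that flank the members on their chromosomes were also read, 2 protein-coding genes on each side in the order of assembly GRCm38.p6. Of 32 such neighbours that are not members, 20 had culture values. From day -3 to day 7, 8 of the 20 were at least 2-fold higher, 1 was lower and 11 were within 2-fold, beside 20.3% higher and 14.7% lower of all genes. Elane, Mcemp1 and Apoc4 exceeded 1 FPKM at day 7 only. They could be listed only by being higher then, so this count is no support by itself. Ffar4, a receptor for long-chain fatty acids beside Rbp4 (listed under its older symbol O3far1), read 0, 0.0185, 1.56 and 28.9 FPKM, with 13.0 RPKM in the tissue. Its day 2 value was 5.40% of day 7, and that of Rbp4 3.50%. Both lay between the quartiles, 3.41% and 24.4%, of the 96 genes described above that started at or below 1 FPKM. Prtn3 and Elane, serine proteases of neutrophil granules beside Cfd, read 16.8 and 2.35 FPKM at day 7, against 0.125 and 0 at day -3, and 0 and 0.406 RPKM in the tissue. In contrast, the genes beside Adipoq that have values, Eif4a2, Rfc4 and St6gal1, differed by less than 2-fold between day -3 and day 7, the widest being Rfc4 with 23.3 and 44.3 FPKM.

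Genes with the most similar course over the 4 culture libraries were found by the root mean square difference of their centred log2 profiles, among genes reaching 10 FPKM. The nearest to Adipoq were G0s2 (0.63), Cd36 (0.64) and Plin1 (0.83). The nearest to C3 were Plin1 (0.18), Gpd1 (0.43) and Retn (0.43), and to Retn Kcnk3 (0.19), Lgals12 (0.22) and Gpd1 (0.27). Rbp4 and Apoc1 were near each other (0.29), and both, like Cfd, had Slc36a2 and Adig among their 3 nearest, while the nearest to Cfd was Apoc1 at 0.70. Phospho1 (0.25) was also near Rbp4. The nearest to Apoe were Ppp1r1a (0.08), Arl4a (0.16) and Lbp (0.16). For Agt it was Adh1 (0.36), another gene with a day 2 maximum, at 0.143, 0.635, 523 and 76 FPKM, with Lpl (0.80) and Cebpa (0.86) much farther. Lep, under 10 FPKM throughout, spans so little on this scale that its nearest genes (Ndufb8, Atp5e and Alkbh5) are abundant genes that roughly doubled. With 4 libraries many genes share a shape, and of the 24 places among the nearest 3 of the other 8 members, filled by 18 different genes, 13 kept their gene with a pseudocount of 0.1 and 1 by Pearson correlation.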

How the data were processed

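Per the labels' protocols, the libraries were made from polyadenylated RNA. The culture values are FPKM by gene symbol and the tissue values are RPKM by RefSeq transcript, both as the authors deposited them and per the file headers. Per the submitters' processing notes, the culture data were made on build mm9 with TopHat2 2.0.10, Cufflinks 1.0.3, CASAVA 1.8.2 and SICER, and the tissue data on mm9 with CASAVA 1.8.2. Which step each tool did and the annotation are not given in the sources used here. Why a gene is missing from the culture tables is not known, so a missing gene cannot be read as low.

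Depth was not recoverable for the culture, where at most 4.65% of low genes shared 1 ratio between any pair of libraries. For the tissue, 31 of 31 single-exon chemosensory receptor transcripts gave whole reads within 0.01 when 1 read on 1 kb was worth 0.187 RPKM, so 3 reads are worth 0.561 RPKM. Their lengths came from GRCm38.p6, another build than mm9.

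Differences are of log2(FPKM + 1), which understates differences at low values. A gene was compared where its larger value was at least 1, and called higher or lower at a difference of at least 1 (2-fold on that scale). Culture percentiles and steps were computed over whole tables, and ranks of culture against tissue over genes with a culture value. This was done with pandas 2.3.3 and numpy 2.4.6 under Python 3.11.15 and drawn with matplotlib 3.10.9, after tests on simulated data. Tissue transcripts were matched to symbols by accession (28436 of 29082, 97.8%), each gene taking its highest transcript, and list symbols were also matched through unique older names.

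The members and the 7 pathway and 9 marker lists were chosen with earlier results of these data known. Named are the members, their binding partners, the 3 genes of each list with the largest difference from day -3 to day 7, marker genes and the 3 genes nearest to each member. Cfb, Cfp, Agtr2, Ren1, Mas1, Apoc2, Apoc3, Apoc4, Abcg1, Hspa5, Plod1, Pdia3, Calr and Ttr were chosen after values were seen. So were the genes of the closing section, the chromosomal neighbours and the measure of day 2 against day 7. Some genes that this rule names are not reported here.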

Additional observations from a re-analysis of the deposited data

How the results depend on the processing

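Over pseudocounts of 0.1 and 5, a filter at 5 FPKM or none, median-ratio scaling, a common total and a 4-fold rule, the counts of members higher or lower stayed within 1.5 times of those reported, between 6 and 8 higher from day 0 to day 2 and from day 2 to day 7. Of 252 single member differences under these settings 11 no longer met the rule and 0 changed sign: Lep with a pseudocount of 5, a filter at 5 and the 4-fold rule, Apoc1 at day 0 to day 2 with the same 3, Rbp4 at that step with a pseudocount of 5 (0.90) and Apoe from day 2 to day 7 with the 4-fold rule. Over the 7 pathway lists together, 40 genes were higher and 15 lower from day -3 to day 7. That became 26 higher with a pseudocount of 5, and 22 higher and 6 lower with the 4-fold rule. The counts within single lists, over all steps, moved by over 1.5 times in 86 of 392 cases, 36 of them under the 4-fold rule. Of the 24 nearest places, 13 kept their gene with a pseudocount of 0.1 and 1 by Pearson correlation. When transcripts were summed in the tissue, the rank difference of Adipoq turned from 0.04 to -0.13 percentage points.

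Over all genes, a common total, an equal sum of FPKM, moved the median difference by 0.19 from day -3 to day 0 and by 0.13 from day -3 to day 7. It made the first step 1583 higher and 380 lower (80.6% higher) in place of 1201 and 576 (67.6%). With a pseudocount of 5 the 4 steps, in the order given, had 436, 383, 530 and 1243 genes higher and 357, 532, 280 and 1035 lower; with the 4-fold rule they had 180, 213, 274 and 754 higher and 88, 201, 103 and 466 lower, in place of 1201, 662, 1026 and 2196 and of 576, 1146, 548 and 1597. The day 2 percentages changed by less than 1.5 times under median-ratio scaling and a common total, both chosen after seeing the data. Their median over all genes compared was 58.4%, and 11.3% over those at or below 1 FPKM in both preadipocyte libraries, a comparison also added after seeing the data. With 1 library per group, no library could be left out, and the unknown depth of the culture limits values near 0. No paired analysis was possible because each group has 1 library.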

Other observations

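Other secreted proteins of fat took several courses in the same cultures. Of 40 further adipokine genes 31 had culture values, and from day -3 to day 7, 15 of 30 compared were at least 2-fold higher and 7 lower, beside 20.3% and 14.7% of all genes, with a median of 0.84 against 0.07. The largest difference upwards, apart from Lpl, was Orm1, the acute-phase protein orosomucoid, listed at 0 at day -3 and at 0.0348, 1.07 and 38.0 FPKM afterwards, with 52.8 RPKM in the tissue. Haptoglobin (Hp), another acute-phase protein, was listed at 0 at days -3 and 0 and read 15.3 and 22.2 FPKM at days 2 and 7, with 155 RPKM in the tissue. Nampt, also called visfatin, read 19.4, 17.8, 57.7 and 176 FPKM, and Vegfa, the growth factor of blood vessels, 94.4, 104, 154 and 567. Angptl4, an inhibitor of lipoprotein lipase, had its maximum at day 2 like Agt, at 220 FPKM, with 88.1 at day 7.

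The opposite course was seen for Ctgf, a matricellular protein, with 1055, 32.9, 9.21 and 28.4 FPKM. It was highest in proliferating preadipocytes and lowest at day 2, and read 1.25 RPKM in the tissue.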
